A study of Homo sapiens with 4 samples.

Results

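The autophagy and lysosome genes described here were 42 genes chosen by symbol. They comprised 24 genes of the autophagy core, 8 of the lysosomal membrane and proton pump, 8 of the hydrolases and other proteins of the lysosomal lumen, and the 2 transcription factors TFEB and TFE3. All 42 were found among the 19775 genes that the arrays could name, and all 42 were bright enough to be tested among 12190 genes. Each gene was read by its brightest probe set, and the 42 genes had 102 probe sets in all.

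The samples were 2 arrays of ING3 cells (a and b) and 2 arrays of control cells (a and b). Both kinds of cell were MIA PaCa-2, an established epithelial line from a human pancreatic carcinoma. The ING3 cells carried a lentivirus with FLAG-tagged, full-length ING3 in the pLenti CMV/TO Puro DEST vector, in which a CMV promoter drives the insert, and the control cells carried a GFP lentivirus. Both were plated after selection of stably transfected clones, whose number is not stated, and grown in medium with serum and antibiotic. By the study's design the arrays within a group are technical duplicates. The p-values therefore compare 1 population of ING3 cells with 1 population of control cells and measure only the spread between technical duplicates.

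Autophagy encloses cytoplasm in a double membrane and delivers it to the lysosome. A kinase complex starts the process, a lipid kinase complex marks the membrane, and conjugation enzymes attach the LC3 and GABARAP proteins to it. The lysosome is kept acid by a proton pump and breaks its contents down with hydrolases. TFEB and TFE3 are transcription factors that switch many of these genes on when the kinase mTORC1 is inactive, and pancreatic carcinoma is known for high basal autophagy.

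ING3 itself had a signal of 521 and 541 on the ING3 arrays, against 338 and 373 on the control arrays, a log2 difference of 0.58 (SE 0.13, limma adjusted p = 0.071). Signal is the linear intensity of a probe set, and each array had been scaled to the same trimmed mean. Signals of different probe sets were used together only to choose the brightest, to mark or filter dim ones, and in marker sums. They were not read as relative amounts of different RNAs. The 3 keratin genes KRT8, KRT18 and KRT19, markers of epithelial carcinoma, had a summed signal of 45061 and 48146 on the ING3 arrays, against 39884 and 40049 on the control arrays, and 2 of the 3 were called. None of the 9 tested markers of fibroblasts, leukocytes and endothelium was called. Of the 18 measured genes on these lists and the acinar list, 9 lay under the filter on dim genes, among them the leukocyte marker PTPRC and the endothelial marker VWF. The leukocyte markers CD3E, ITGAM and CD53 and the endothelial markers PECAM1 and CDH5 were past the filter. CDH5 had 328 and 257 on the ING3 arrays, against 303 and 288 on the control arrays. The summed signal of the 6 fibroblast genes was 5385 and 5754 on the ING3 arrays, against 6479 and 6261 on the control arrays. The part of these markers in the differences below was not tested. All samples were of the MIA PaCa-2 line. In bulk RNA of this line, fewer cells that express a gene and less of its RNA per cell cannot be told apart. As a sign of RNA quality, the ACTB probe sets gave a 3′ to 5′ signal ratio of 2.05 and 2.03 for ING3 and of 2.58 and 1.80 for control.

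None of the 42 autophagy and lysosome genes passed the test. By limma with Benjamini-Hochberg adjustment over all tested genes, 0 rose and 0 fell at an adjusted p under 0.05, where 1.5% of all tested genes were called (1.03% higher and 0.476% lower in ING3 cells). The smallest adjusted p among the members was 0.077, for RB1CC1. At an unadjusted p under 0.05 there were 10 members, 5 higher and 5 lower in ING3 cells, or 23.8% of the members against a background of 17.7%. The differences were small: they lay between -0.43 and 0.60 on the log2 scale, with a median of 0.024, against a median of -0.0074 over all tested genes.

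The test bounded most members narrowly. The 95% interval of the difference lay within a 1.5-fold change in either direction for 37 of 42 members (88.1%, against 67.6% of all tested genes). The 5 exceptions were ULK1, ATG4A, ATP6V0D1, MCOLN1 and TFEB, and TFEB was the 1 member whose interval also reached past a 2-fold change. These intervals are for each gene on its own and cover the spread between technical duplicates only. The median SE was 0.073 for the members and 0.11 for all tested genes. Dim genes are noisier, and the part of brightness in the narrower intervals was not tested.

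**Figure D1:**
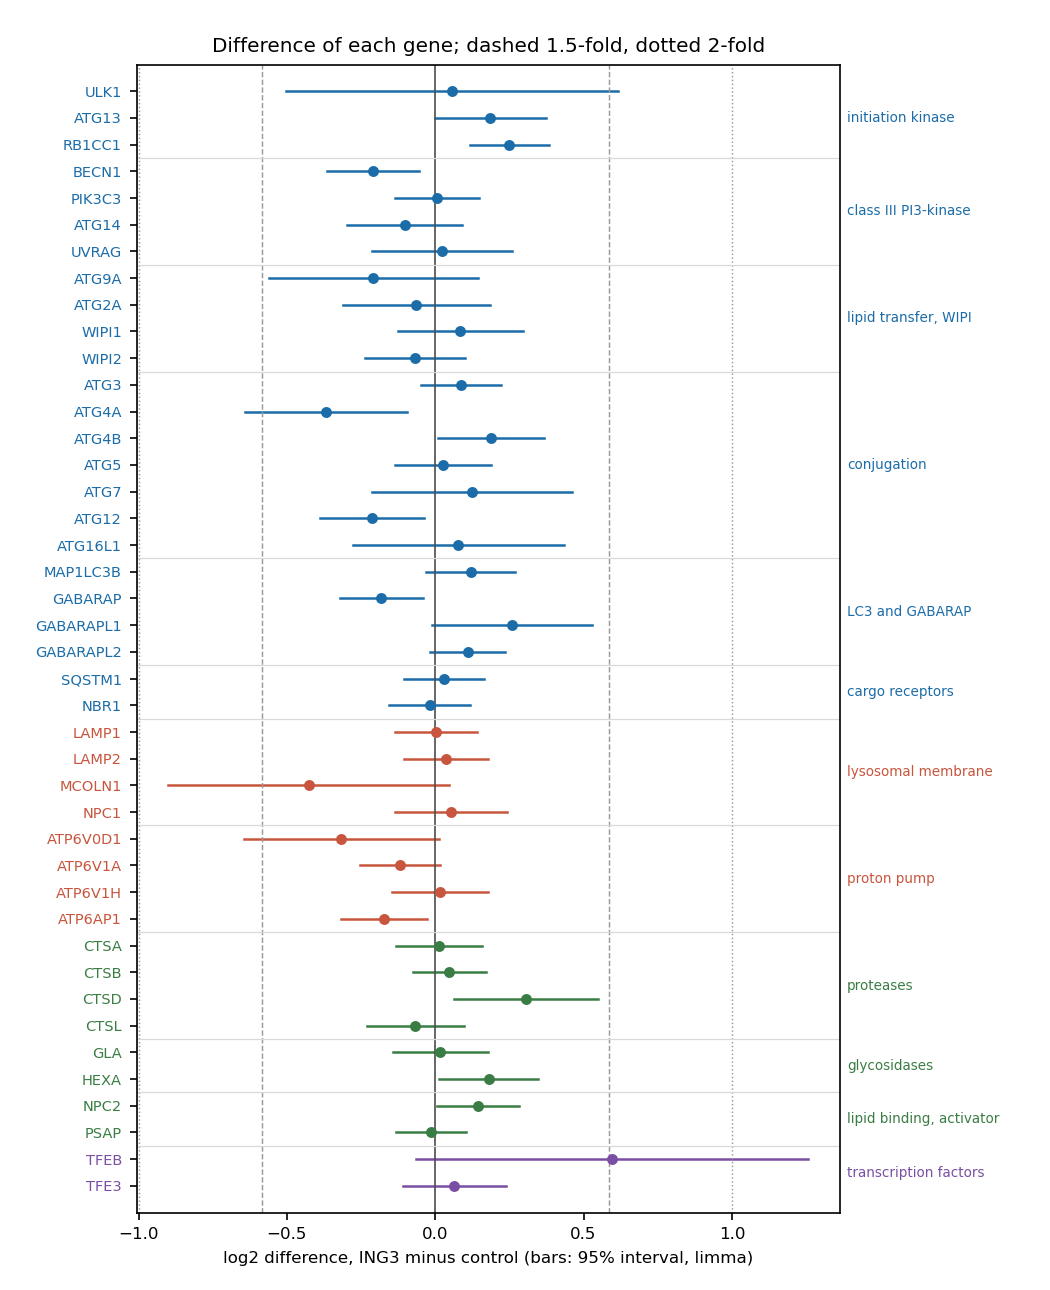
Log2 difference (ING3 minus control, horizontal axis) of each of the 42 genes, grouped by role, with points for the estimate and bars for the 95% interval from limma. Dashed and dotted lines mark 1.5-fold and 2-fold changes; 37 intervals stay inside the dashed lines, and the interval of TFEB is the 1 that passes a dotted line.

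The groups did not overlap for 24 members: for 15, both ING3 arrays lay above both control arrays, and for 9 both lay below (all tested genes, 24.3% above and 24.9% below). That is 57.1% of the members, near the 49.2% of all tested genes with groups that did not overlap. For 19 members (45.2%, against 36.9% of all tested genes) the difference between the group means was larger than the gap between the duplicates of either group. Log2 signals of the members varied between the duplicates with an SD of their differences of 0.18 for ING3 and 0.12 for control, and between an ING3 and a control array with an SD of 0.19 to 0.24.

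**Figure D2:**
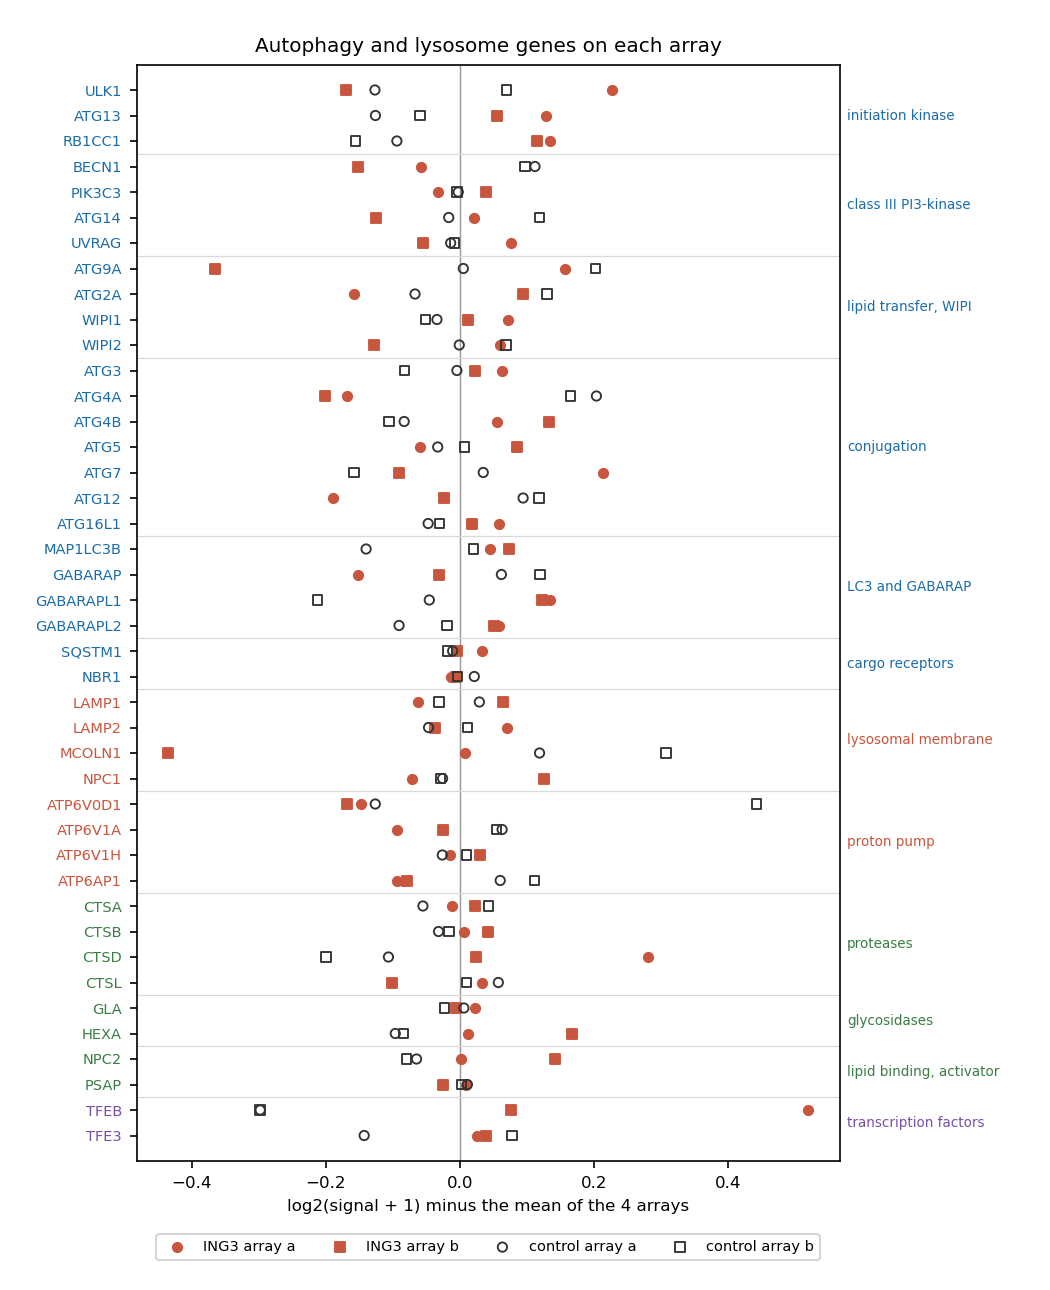
Signal of each of the 42 genes on each array, as log2(signal + 1) minus the gene's mean over the 4 arrays. Filled symbols are the ING3 arrays a and b and open symbols the control arrays a and b; the widest gaps between duplicates are the control arrays for ATP6V0D1 and the ING3 arrays for ATG9A, MCOLN1 and TFEB.

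More members were higher than lower in ING3 cells on the deposited scale, but the split depended on the scaling. Of the 42 members 27 (64.3%) had a higher mean log2 signal in ING3 cells, against 48.3% of all tested genes. After quantile normalization 20 of the 42 were higher (all genes, 53.2%), and after cyclic loess 21 of the 42 were higher (all genes, 53.3%). Neither scaling moved the median of all tested genes by over 0.1 on the log2 scale: it was 0.013 and 0.014.

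**Figure D3:**
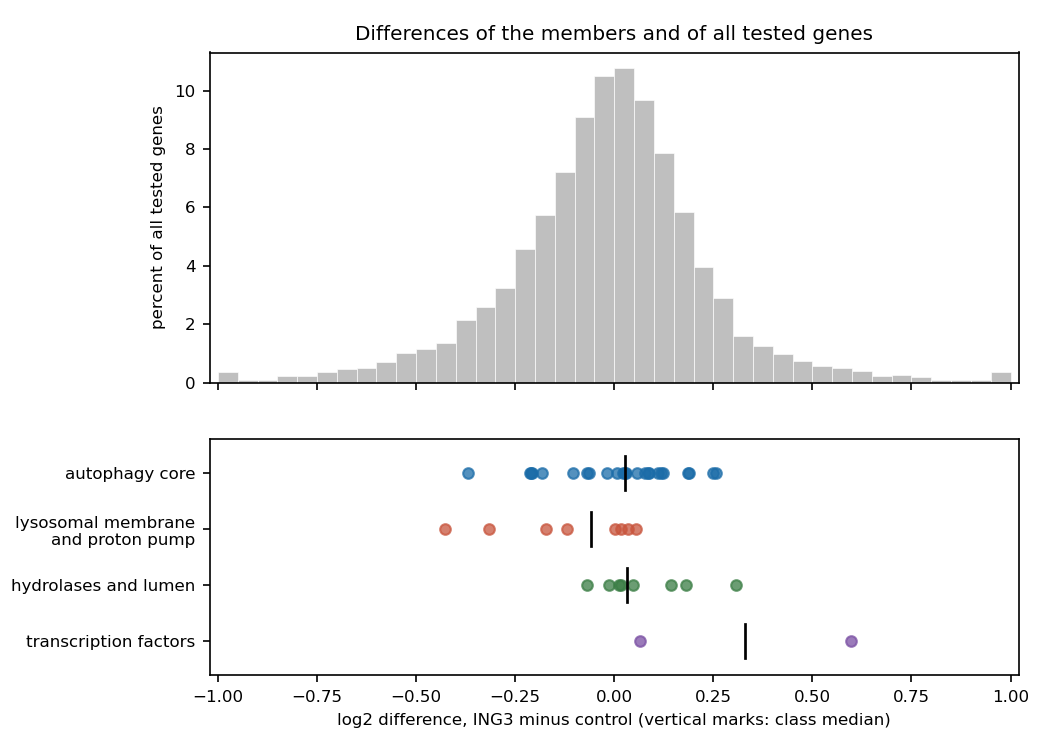
Upper panel, percent of the 12190 tested genes in bins of the log2 difference (ING3 minus control); the outermost bins also hold the genes beyond them. Lower panel, the same difference for each member by class, with a vertical mark at the class median; the medians are 0.028 for the autophagy core, -0.058 for membrane and pump, 0.032 for hydrolases and lumen, and 0.33 for TFEB and TFE3.

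Of the 3 genes of the kinase complex that starts autophagy, 0 were called, and all 3 had a higher mean in ING3 cells, also after quantile normalization and cyclic loess. RB1CC1, the scaffold also known as FIP200, had a signal of 5602 and 5530 on the ING3 arrays, against 4783 and 4581 on the control arrays. The groups did not overlap, and the log2 difference was 0.25 (SE 0.059, interval 0.12 to 0.38, limma adjusted p = 0.077). Its second probe set, also past the filter, had 4032 and 3693 on the ING3 arrays, against 3534 and 3535 on the control arrays. This second probe set is of the type (_x_at) that can bind other transcripts.

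ATG13, the adaptor that links the kinase to the scaffold, had 1428 and 1357 on the ING3 arrays, against 1196 and 1253 on the control arrays (log2 difference 0.18, SE 0.083, limma adjusted p = 0.29). Other ATG13 probe sets past the filter had log2 differences of 0.35 and -0.057, with overlapping groups in each. ULK1, the kinase itself, was dim and had 180 and 136 on the ING3 arrays, against 141 and 161 on the control arrays. The groups of ULK1 overlapped, and its interval ran from -0.50 to 0.62 on the log2 scale.

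Of the 4 genes of the class III PI3-kinase complex, 0 were called. BECN1, the Beclin subunit that the complex is built around, had 2555 and 2393 on the ING3 arrays, against 2875 and 2846 on the control arrays. Both ING3 arrays were below both control arrays (log2 difference -0.21, SE 0.069, limma adjusted p = 0.16), but its second probe set had a log2 difference of 0.0058. PIK3C3, the catalytic subunit VPS34, had 3567 and 3749 on the ING3 arrays, against 3644 and 3639 on the control arrays, so the groups overlapped.

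The probe sets of PIK3C3 disagreed. Its other 3 probe sets past the filter, all dimmer, had log2 differences of -0.50, -0.40 and -0.59, with both ING3 arrays below both control arrays in each. In a fit over all 27305 probe sets past the filter, 101 (0.37%) were called, and none of the 88 probe sets of the members was among them. ATG14, which directs the complex to autophagy, and UVRAG, the subunit of its endosomal form, had log2 differences of -0.10 and 0.022, and their groups overlapped.

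Of the 4 genes for lipid transfer and phosphoinositide binding, 0 were called. ATG9A, the scramblase that seeds the membrane, had 1084 and 754 on the ING3 arrays, against 975 and 1119 on the control arrays. ING3 array b alone was low, and the log2 difference was -0.21 (interval -0.56 to 0.15). ATG2A, the lipid channel, and WIPI2, which recruits the conjugation machinery, had differences of -0.063 and -0.068, and both groups overlapped. Other WIPI2 probe sets past the filter had log2 differences of -0.26 and -0.30, with groups that did not overlap, and 0.045, with overlapping groups. WIPI1, a related phosphoinositide binder, had 928 and 891 on the ING3 arrays, against 862 and 852 on the control arrays. Its groups did not overlap, at a log2 difference of 0.085 (limma adjusted p = 0.69).

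Of the 7 conjugation genes 0 were called, 5 were higher and 2 lower in ING3 cells. The median of their log2 differences was 0.078. After quantile normalization 4 were higher and 3 lower (median 0.038), and after cyclic loess 5 and 2 (median 0.043). By the mean of probe sets 3 were higher and 4 lower (median -0.023), and without _x_at and _s_at probe sets also 3 and 4 (median -0.15). ATG4A and ATG4B, proteases that trim LC3 and GABARAP proteins before they are attached, differed in opposite directions. ATG4A had 435 and 425 on the ING3 arrays, against 563 and 548 on the control arrays (log2 difference -0.37, SE 0.12, limma adjusted p = 0.16). ATG4B had 1524 and 1609 on the ING3 arrays, against 1384 and 1363 on the control arrays (log2 difference 0.19, SE 0.079, limma adjusted p = 0.26). The groups did not overlap for either gene. The ATG4B probe set is of the type (_x_at) that can bind other transcripts, and the dimmest of the 3 for this gene had a log2 difference of -0.14.

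ATG12, the ubiquitin-like protein that is joined to ATG5, had 1952 and 2191 on the ING3 arrays, against 2378 and 2417 on the control arrays. Both ING3 arrays were lower (log2 difference -0.21, SE 0.078, limma adjusted p = 0.21), and its other 2 probe sets past the filter had differences of -0.18 and -0.54. Its partner ATG5 had 2904 and 3211 on the ING3 arrays, against 2958 and 3041 on the control arrays, with overlapping groups. ATG3 and ATG7, the enzymes that carry and activate the ubiquitin-like proteins, had log2 differences of 0.087 and 0.12, and ATG16L1, which places the ATG12 and ATG5 conjugate on the membrane, had 0.078. The second probe set of ATG3, just past the filter, had 56.2 and 54.9 on the ING3 arrays, against 70.8 and 81.3 on the control arrays, the opposite direction to its brightest.

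Of the 4 LC3 and GABARAP genes, whose proteins coat the autophagosome and bind cargo receptors, 0 were called. By their brightest probe sets all 4 had groups that did not overlap, in mixed directions, against 49.2% of all tested genes. GABARAP had 7937 and 8634 on the ING3 arrays, against 9206 and 9582 on the control arrays (log2 difference -0.18, SE 0.062, limma adjusted p = 0.18). MAP1LC3B, which encodes LC3B, had 8173 and 8339 on the ING3 arrays, against 7190 and 8037 on the control arrays (log2 difference 0.12, SE 0.066). Its second probe set had 6853 and 7718 on the ING3 arrays, against 6766 and 7353 on the control arrays. Those groups overlapped (log2 difference 0.044). GABARAPL1 had 613 and 608 on the ING3 arrays, against 541 and 482 on the control arrays (log2 difference 0.26, SE 0.12). The second GABARAPL1 probe set had a log2 difference of 0.30, with groups that did not overlap. GABARAP was thus the 1 member of this group with a lower mean in ING3 cells, and this 3 to 1 split was the same after quantile normalization and cyclic loess. GABARAPL2 had 9434 and 9385 on the ING3 arrays, against 8507 and 8939 on the control arrays (log2 difference 0.11, limma adjusted p = 0.34).

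Of the 2 cargo receptors 0 were called, and by their brightest probe sets both had differences near 0. SQSTM1, which encodes p62, had 4546 and 4434 on the ING3 arrays, against 4412 and 4387 on the control arrays (log2 difference 0.029, interval -0.10 to 0.16). NBR1, a related receptor, had 3642 and 3661 on the ING3 arrays, against 3731 and 3668 on the control arrays (log2 difference -0.019, interval -0.16 to 0.12). A dimmer SQSTM1 probe set had 327 and 462 on the ING3 arrays, against 442 and 581 on the control arrays, and those groups overlapped. The other SQSTM1 probe sets past the filter had log2 differences of 0.26, -0.25 and -0.16. A dim NBR1 probe set past the filter had 45.3 and 63.6 on the ING3 arrays, against 118 and 78.9 on the control arrays. Those groups did not overlap (log2 difference -0.83), and another NBR1 probe set had 0.14. The median of the 2 genes was -0.17 by the mean of probe sets and -0.61 without _x_at and _s_at probe sets.

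Among the 4 genes of the lysosomal membrane 0 were called. LAMP1 and LAMP2, the abundant glycoproteins that line the membrane, had log2 differences of 0.0018 (interval -0.14 to 0.14) and 0.035 (interval -0.11 to 0.18). LAMP1 had 11531 and 12591 on the ING3 arrays, against 12289 and 11785 on the control arrays, so that both control arrays lay between the ING3 arrays. The dimmest probe set of LAMP1 had 249 and 223 on the ING3 arrays, against 339 and 289 on the control arrays. Other LAMP2 probe sets past the filter had log2 differences of 0.18 and 0.11, with groups that did not overlap, and 0.14, with overlapping groups. NPC1, which exports cholesterol from the lysosome, had a difference of 0.054, with overlapping groups. MCOLN1, the calcium channel of the lysosome, had 236 and 173 on the ING3 arrays, against 255 and 291 on the control arrays. Both ING3 arrays were lower, by a log2 difference of -0.43 (interval -0.90 to 0.045, limma adjusted p = 0.33), and this was the lowest value among the members.

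Of the 4 genes of the V-ATPase, the proton pump that acidifies the lysosome, 3 were lower in ING3 cells with groups that did not overlap (24.9% of all tested genes lay so), and 0 were called. The median log2 difference of the 4 was -0.14, and -0.077 without control array b; 3 of 4 were lower also after quantile normalization and cyclic loess. ATP6AP1, an accessory subunit, had 2844 and 2875 on the ING3 arrays, against 3165 and 3279 on the control arrays (log2 difference -0.17, SE 0.064, limma adjusted p = 0.21). ATP6V1A, the catalytic subunit that splits ATP, had 4557 and 4781 on the ING3 arrays, against 5081 and 5051 on the control arrays (log2 difference -0.12, SE 0.060). By their brightest probe sets these 2 genes were lower on both ING3 arrays by small margins. A dimmer ATP6V1A probe set past the filter had 111 and 152 on the ING3 arrays, against 186 and 176 on the control arrays. Those groups did not overlap (log2 difference -0.48).

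ATP6V0D1, a subunit of the membrane sector, had 2791 and 2751 on the ING3 arrays, against 2834 and 4204 on the control arrays. Control array b alone was high: the log2 difference was -0.32 over all arrays and -0.032 without that array. ATP6V1H, a regulatory subunit, had a difference of 0.016 with overlapping groups.

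Among the 8 genes of the hydrolases and lumen 0 were called, and 6 had a higher mean in ING3 cells, against 4 of 8 after quantile normalization or cyclic loess. CTSD, the aspartic protease cathepsin D, had 1261 and 1055 on the ING3 arrays, against 963 and 903 on the control arrays. Both ING3 arrays were higher (log2 difference 0.31, SE 0.11, interval 0.064 to 0.55, limma adjusted p = 0.19). The other cathepsins differed less. CTSB, a cysteine protease, CTSA, a carboxypeptidase that also protects other lysosomal enzymes, and CTSL, a cysteine protease, had log2 differences of 0.048, 0.012 and -0.068, and their intervals lay between -0.23 and 0.17. The other CTSB probe sets past the filter were also higher in ING3 cells, with log2 differences of 0.17, 0.088, 0.10 and 0.11.

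HEXA, the alpha subunit of beta-hexosaminidase, which degrades gangliosides, had 2838 and 3162 on the ING3 arrays, against 2633 and 2656 on the control arrays (log2 difference 0.18, SE 0.074, limma adjusted p = 0.25). A dim HEXA probe set had the opposite sign, with 92.3 and 88.3 on the ING3 arrays, against 131 and 102 on the control arrays. GLA, the alpha-galactosidase that is deficient in Fabry disease, had 1988 and 1950 on the ING3 arrays, against 1966 and 1926 on the control arrays. Its log2 difference was 0.017 (interval -0.14 to 0.18). NPC2, the soluble cholesterol carrier of the lumen, had 11546 and 12724 on the ING3 arrays, against 11027 and 10913 on the control arrays (log2 difference 0.14, SE 0.062, limma adjusted p = 0.27). PSAP, the precursor of the saposins that help to degrade sphingolipids, had 14619 and 14273 on the ING3 arrays, against 14633 and 14548 on the control arrays. Its log2 difference was -0.014, with overlapping groups. The second PSAP probe set had 6485 and 6345 on the ING3 arrays, against 5860 and 6017 on the control arrays. Those groups did not overlap, at a log2 difference of 0.11.

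TFEB had the highest log2 difference of the members and did not pass the test. Its signal was 159 and 117 on the ING3 arrays, against 90.0 and 90.0 on the control arrays, so both ING3 arrays were higher. The log2 difference was 0.60 (SE 0.29, limma adjusted p = 0.33), a 1.51-fold higher signal, with an interval of -0.064 to 1.26. The probe set was close to the filter, which stood at a signal of about 64.6, and the second TFEB probe set, under the filter, had 25.8 and 32.1 on the ING3 arrays, against 16.3 and 31.9 on the control arrays. Without ING3 array b the log2 difference was 0.82, and without ING3 array a it was 0.37. TFE3, its relative, had 4887 and 4930 on the ING3 arrays, against 4347 and 5066 on the control arrays, with overlapping groups and a log2 difference of 0.065. A dimmer TFE3 probe set past the filter had 378 and 404 on the ING3 arrays, against 470 and 472 on the control arrays. Those groups did not overlap, at a log2 difference of -0.27, the opposite direction to its brightest.

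TFEB and TFE3 bind an E-box, and the promoters of many lysosomal genes hold its extended palindromic form TCACGTGA. The matches are shown because TFEB and TFE3 are members and this is the element they are known to bind in other members. RefSeq promoter windows on GRCh38.p14, 250 bases before to 50 after a gene's start, were found for 34 members; ATP6V1A, ATP6V1H, CTSB, HEXA, LAMP2, PSAP, RB1CC1 and UVRAG had no entry. The 8-base palindrome, which reads the same on both strands, was present for 5 of the 34 members (14.7%), against 1.18% of all 27305 genes with a window. Its 6-base core CACGTG, which the palindrome contains, was present for 7 (20.6%), against 8.77% of all genes, and in all 7 it stood within TCACGTG read on either strand (all genes, 4.49%). A match is a string of letters and no evidence of binding. In each stretch the capitals mark 1 match, and the CTSA stretch holds a further match to the 7-base form in lower case near its left end. The stretches are given 5′ to 3′ on the gene's strand.
MCOLN1, chr19:7522562-7522609, plus strand: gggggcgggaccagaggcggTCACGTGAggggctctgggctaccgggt
ATP6V0D1, chr16:67481190-67481237, minus strand: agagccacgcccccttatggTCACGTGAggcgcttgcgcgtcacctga
LAMP1, chr13:113297190-113297237, plus strand: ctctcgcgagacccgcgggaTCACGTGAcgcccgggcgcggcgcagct
CTSA, chr20:45891289-45891336, plus strand: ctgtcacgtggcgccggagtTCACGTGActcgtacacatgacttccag
ATG3, chr3:112561931-112561978, minus strand: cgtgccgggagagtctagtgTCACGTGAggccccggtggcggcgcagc
CTSD, chr11:1763948-1763994, minus strand: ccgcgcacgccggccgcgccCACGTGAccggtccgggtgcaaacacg
ATG14, chr14:55411825-55411871, minus strand: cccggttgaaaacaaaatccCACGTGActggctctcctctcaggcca

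The match began 21 to 60 bases before the start in 6 of these genes and just after it in ATG3, and the windows of LAMP1 and MCOLN1 held the palindrome at a second place. The genes with the full palindrome differed in direction. Their log2 differences were -0.43 for MCOLN1, -0.32 for ATP6V0D1, 0.0018 for LAMP1, 0.012 for CTSA and 0.087 for ATG3. The genes with the shorter form had 0.31 for CTSD and -0.10 for ATG14. None of the 7 was called.

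Of the other genes of the pathway, taken from 6 lists that hold no member, 1 of 125 tested genes was called, where 1.5% of all tested genes were. That count is no more than the background. The gene was MTOR, the catalytic subunit of the kinase complex mTORC1 that holds TFEB in the cytoplasm and represses autophagy. Its signal was 330 and 382 on the ING3 arrays, against 698 and 589 on the control arrays. Both ING3 arrays were lower, and MTOR fell by 0.85 on the log2 scale (SE 0.14, limma adjusted p = 0.027), a 1.80-fold lower signal. Its second probe set lay under the filter, with 12.6 and 44.4 on the ING3 arrays, against 36.8 and 8.50 on the control arrays, so those groups overlapped. The call was kept without ING3 array a (limma adjusted p = 0.047) and without ING3 array b (0.028). It was lost without control array a (log2 difference -0.73, limma adjusted p = 0.25) and without control array b (-0.97, limma adjusted p = 0.16). It was also lost without an intensity trend (limma adjusted p = 0.24), after quantile normalization (0.051) and without a filter on dim genes (0.071). Across all 15 alternatives, of which 5 ended the call, the adjusted p ran from 0.0060 to 0.25.

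The other 24 tested genes of MiT/TFE factors and mTORC1 regulators were not called, and the list of 25 held 12 higher and 13 lower genes. Among other autophagy genes 9 of 23 were higher and 14 lower. The smallest adjusted p there belonged to WDR45, a phosphoinositide binder related to the WIPI proteins, with 5541 and 5666 on the ING3 arrays, against 6446 and 7028 on the control arrays (log2 difference -0.26, limma adjusted p = 0.078). Among 8 other cargo receptors 5 were higher and 3 lower (4 and 4 after quantile normalization), and RETREG1, a receptor for the endoplasmic reticulum, had a log2 difference of -0.46 (limma adjusted p = 0.15).

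Of the genes of the lysosomal membrane outside the members, 14 of 19 tested had a lower and 5 a higher mean in ING3 cells. The share higher was 26.3%, against 48.3% of all tested genes. This split was the same after quantile normalization and cyclic loess. It was 11 lower and 8 higher without control array a, and 15 and 4 without control array b. The median log2 difference of these genes was -0.11 as deposited, -0.070 after quantile normalization, -0.071 after cyclic loess and -0.037 without ING3 array b. None of the 19 was called. MCOLN3, a channel related to MCOLN1, had 482 and 452 on the ING3 arrays, against 664 and 688 on the control arrays (log2 difference -0.53, SE 0.12, limma adjusted p = 0.062). The groups of MCOLN3, like those of MCOLN1, did not overlap.

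The other V-ATPase subunits had values on both sides of 0: 9 of 16 were higher and 7 lower on the deposited scale, and 7 were higher and 9 lower after quantile normalization or cyclic loess. None was called, and ATP6V0E1, a small membrane subunit read by an _x_at probe set, had the smallest adjusted p (log2 difference -0.16, limma adjusted p = 0.20). Among 34 other hydrolases and genes of their sorting 15 were higher and 19 lower, and none was called. GNPTAB, which makes the mannose phosphate tag that sends hydrolases to the lysosome, had 1432 and 1507 on the ING3 arrays, against 1855 and 1773 on the control arrays (log2 difference -0.30, SE 0.078, limma adjusted p = 0.091).

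**Figure D4:**
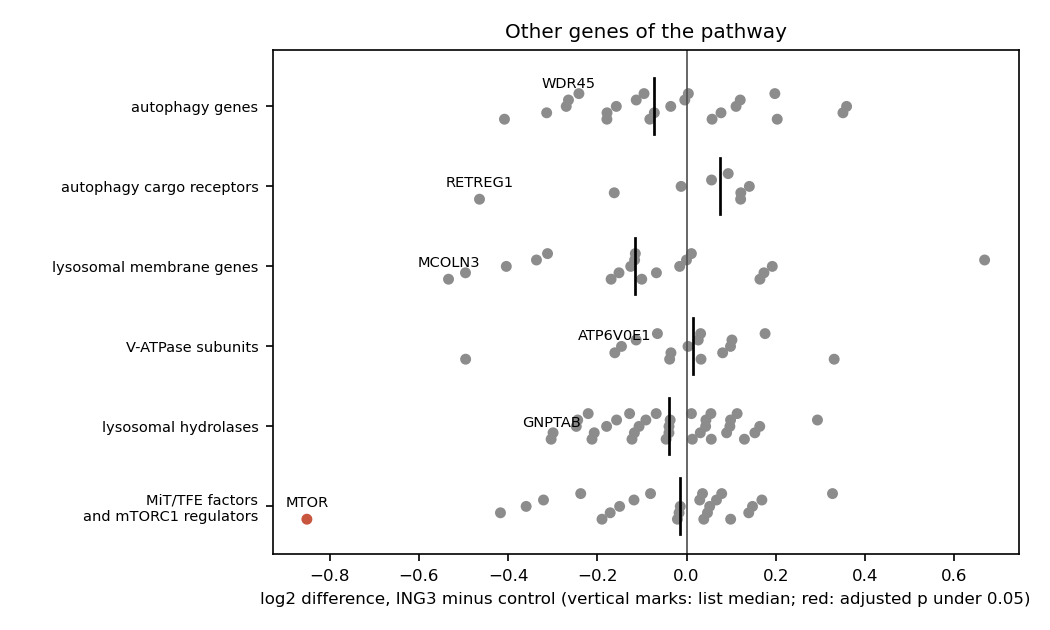
Log2 difference (ING3 minus control, horizontal axis) of the 125 tested genes of 6 other lists of the pathway, 1 row a list, with a vertical mark at the list median and vertical jitter for legibility. MTOR, in red at -0.85, is the 1 gene called; the other labelled genes have the smallest adjusted p of their list.

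Probe sets of the same member often differed in sign. Of the members, 24 had at least 1 other probe set past the filter, and for 8 of these all others had the same sign as the brightest. Of the 46 other probe sets, 24 had the same sign. By the mean of all probe sets past the filter, 19 of 42 members were higher in ING3 cells and the median log2 difference was -0.051, against -0.034 over all genes measured that way.

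**Figure D5:**
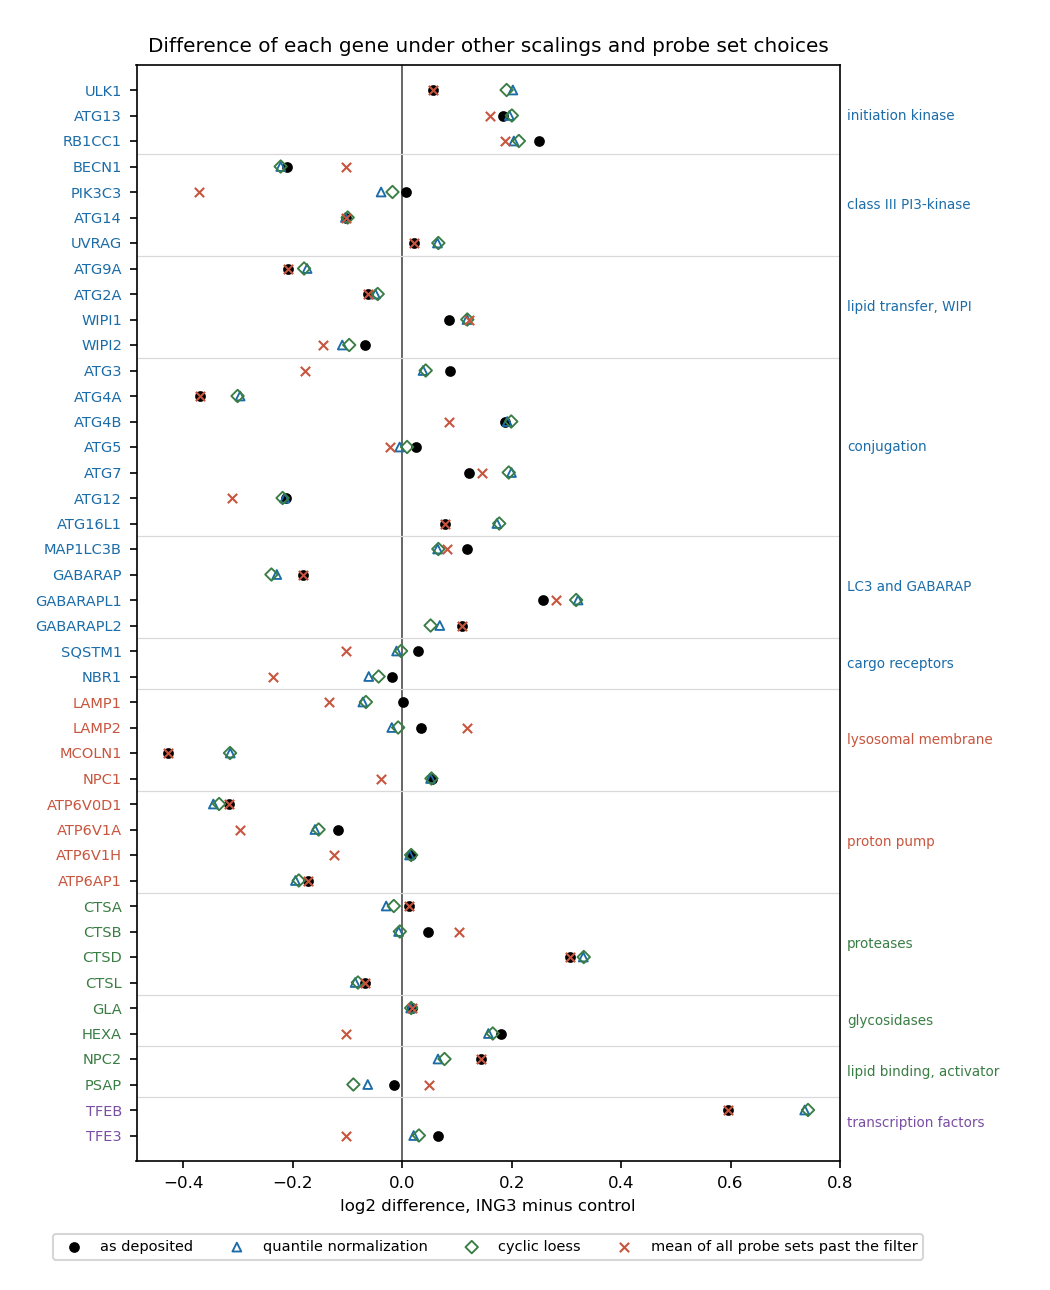
Log2 difference (ING3 minus control) of each member as deposited, after quantile normalization, after cyclic loess and by the mean of all its probe sets past the filter. The scalings leave most members close to the deposited value, while averaging probe sets moves PIK3C3 to -0.37, against 0.0062 for its brightest probe set.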

How the data were processed

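The deposited values were linear signal intensity values for 54675 probe sets on 4 arrays, which the authors computed by the MAS5 method in Affymetrix Expression Console, as the submitters' processing notes name these tools without a version. A single scaling factor per array leaves differences that depend on brightness, and dim probe sets are noisier. Arrays have no read depth, and their number limits the precision. Probe sets with 1 symbol (41097) were named through the platform annotation of 2016, and 62 control probe sets were left out. For each gene the brightest probe set, by mean log2(signal + 1), was kept. The 12190 genes at or above the median of all probe sets were fitted with limma 3.58.1 in R 4.3.3 (lmFit, eBayes with an intensity trend, two-sided, no covariates), with Benjamini-Hochberg adjustment over all of them. Log2 differences are ING3 minus control and may understate changes of dim genes, which was not tested.

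On simulated data with 12190 genes, 47 of 100 genes with a 1.5-fold change and 78 of 100 with a 2-fold change were recovered, with 11 false calls among 136. The changed genes were drawn at random from all tested genes, so these shares are not estimates for the members. The simulated noise was drawn from the variance model fitted to these arrays, which is the model that the test assumes. It held no variation beyond that between the technical duplicates. Members and lists were chosen with earlier results of these data known. All members were named. Of the other lists, the called genes, or else the gene with the smallest adjusted p, were named. Of the members' other probe sets, those past the filter that opposed the brightest by at least 0.3 were named. All probe sets named by that rule were lower in ING3 cells. RB1CC1, BECN1, ATG4B, ATG12, SQSTM1, NBR1, MAP1LC3B, GABARAPL1, LAMP2, CTSB, PSAP and TFEB probe sets outside that rule were given after their values were seen. So were those of ATG13, WIPI2, ATP6V1A and TFE3. Promoter windows came from RefSeq. Alternatives were 2 other variance models, 2 scalings, 2 pseudocounts (16 and 64), 2 filters, 2 probe set choices, each array left out, and the letter of the title as a replicate block.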

Additional observations from a re-analysis of the deposited data

How the results depend on the processing

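Over 15 alternatives the number of members called was 0 each time, with a lowest adjusted p of 0.055 (limma, RB1CC1, replicate block). Of 624 values of members, 47 took the opposite sign to the deposited setting, in 19 members, and 23 members kept their sign throughout; none of the 47 was called in either setting, and the cause was not tested. The number of genes called was 183, against 0 without an intensity trend (1686 at an unadjusted p under 0.05), 115 after quantile normalization, 54 without a filter (more genes tested), and 2 to 305 with 1 array left out (305 without ING3 array a, 2 without either control array). The count of other pathway genes called was 1 (MTOR), against 0 without a trend, after quantile normalization and without a filter, 2 with the stricter filter, and 0 to 1 with 1 array left out. The median over members was -0.051 for the mean of probe sets, against 0.024. Arrays of the same letter did not deviate together (r = 0.029 across genes), and the letters mark no shared batch in the labels; with the replicate block 442 genes and 4 other pathway genes were called, and 0 members.

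After quantile normalization the log2 differences that changed sign were -0.039 for PIK3C3, -0.0047 for ATG5, -0.010 for SQSTM1, -0.072 for LAMP1, -0.019 for LAMP2, -0.029 for CTSA and -0.0065 for CTSB. After cyclic loess they were -0.018 for PIK3C3, -0.0021 for SQSTM1, -0.066 for LAMP1, -0.0075 for LAMP2, -0.015 for CTSA and -0.0044 for CTSB. With the mean of probe sets they were -0.37 for PIK3C3, -0.18 for ATG3, -0.023 for ATG5, -0.10 for SQSTM1, -0.13 for LAMP1, -0.039 for NPC1, -0.13 for ATP6V1H, -0.10 for HEXA, 0.048 for PSAP and -0.10 for TFE3. Without _x_at and _s_at probe sets they were -0.44 for ATG3, -0.15 for ATG7, -0.38 for SQSTM1 and -0.36 for HEXA. With 1 array left out, the values ran from -0.19 to 0.062 for ATG2A, -0.047 to 0.098 for ATG5, -0.029 to 0.27 for ATG7, -0.47 to 0.053 for ATG9A, -0.0063 to 0.038 for ATP6V1H, -0.036 to 0.061 for CTSA, -0.062 to 0.065 for LAMP1, -0.019 to 0.089 for LAMP2, -0.044 to 0.15 for NPC1, -0.030 to 0.042 for PIK3C3, -0.032 to 0.0028 for PSAP, -0.045 to 0.18 for TFE3, -0.14 to 0.26 for ULK1, -0.044 to 0.087 for UVRAG and -0.16 to 0.026 for WIPI2. Dim members (ULK1, MCOLN1, TFEB) had the widest intervals.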
